A study of Mus musculus with 48 samples.

Results

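The receptors for corticosteroids and the corticotropin-releasing hormone (CRH) system were described through 9 genes of the 48440 in the count table: the receptors Nr3c1 and Nr3c2, the enzyme Hsd11b1, the receptor co-chaperones Fkbp5 and Fkbp4, the peptide Crh, its receptors Crhr1 and Crhr2, and its binding protein Crhbp. The genes were taken by name, with earlier results of these data known, and each name matched 1 gene of the table. The libraries are RNA sequencing of the whole hippocampus of 48 female C57BL/6 mice of 3 months. Control (C) mice came from undisturbed dams. Prenatally stressed mice came from dams restrained 3 times a day from embryonic day 13 to 17, and the study divided them by their social behaviour into socially affected (SA, labelled susceptible) and socially unaffected (SU, labelled resilient) offspring. Libraries labelled 5-Htt+/+ comprised 8 C, 8 SA and 8 SU mice, and those labelled 5-Htt+/-, a constitutive loss of one copy of the serotonin transporter gene, comprised 7 C, 8 SA and 9 SU mice. All were offspring of wildtype dams and heterozygous males, and all had passed a behavioural test battery and an acute restraint before the tissue was taken.

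Corticosterone, the main corticosteroid of the mouse, reaches hippocampal neurons through the mineralocorticoid receptor (Nr3c2), which binds it with high affinity, and the glucocorticoid receptor (Nr3c1), which is filled mainly during stress and at the daily peak of the hormone. Hsd11b1 regenerates active hormone inside the cell. Both receptors mature in an HSP90 complex, in which FKBP5 lowers and FKBP4 favours hormone binding and transport to the nucleus, and Fkbp5 is itself switched on by the activated receptor, which closes a short feedback loop. CRH starts the hormonal stress response in the hypothalamus. In the hippocampus it is made by interneurons and acts on CRHR1, while CRHR2 mainly serves the urocortins and CRHBP captures free peptide.

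Total counts were 16488405 to 38213754 per library (median 24125647.5). Granule and pyramidal cell genes were abundant in every library (Prox1 68.9 to 132 CPM, counts scaled to the library size, and Camk2a 2234 to 3684 CPM). The serotonin transporter gene Slc6a4 had a mean of 14.8 to 14.98 CPM in the groups labelled 5-Htt+/-. In those labelled 5-Htt+/+ it had 0.109 to 0.187 CPM, so the transcript was higher under the label of a lost copy. The cause was not tested, and genotypes are given below as labels only. Choroid plexus tissue, marked by Ttr, was present in 20 libraries (226 to 788 CPM) and near absent in 28 (4.93 to 34.8 CPM). In addition, 6 libraries had the lowest scores on the first principal component of log2 CPM, which holds 7.63% of the variance: 3 control 5-Htt+/- libraries and 1 each of control 5-Htt+/+, SA 5-Htt+/+ and SU 5-Htt+/-. Main results that rest on these libraries are also given without them. The component is drawn from the same log2 CPM. With group means taken out, it was related to Nr3c1 (Pearson r = 0.826) and Fkbp5 (−0.585). Fits without these libraries, or with its score, are thus no independent check for these genes. Litter is not in the labels, so p-values may be too small where libraries share one.

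All 9 genes were measured, over a wide range of levels. Per kilobase of exon, mean levels over the 48 libraries were highest for Fkbp4 (29.0 CPM per kb) and Nr3c2 (23.4), followed by Nr3c1 (10.1), Crhbp (8.54), Fkbp5 (5.83), Hsd11b1 (4.85) and Crhr1 (4.80). Crh (0.644 CPM per kb) and Crhr2 (0.333) were the scarcest, with 8 to 48 reads of Crh and 15 to 106 reads of Crhr2 in a library. For each gene the 6 groups were put in order of their mean. Of the 45 neighbouring pairs in these orders, 0 were more than 1 pooled SD apart. The widest gap was 0.977 SD, for Fkbp5 between SA 5-Htt+/+ and control 5-Htt+/- libraries. Neighbours in a sorted order lie close by construction, and groups further apart in it were not counted. The outer means of Fkbp5 were 52.3 CPM (SA 5-Htt+/-) and 60.0 CPM (control 5-Htt+/-). In the 7 pairs of groups that were compared, the ranges overlapped for every member, as the plot of levels by library shows. How many of all genes overlap in this way was not counted.

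**Figure D1:**
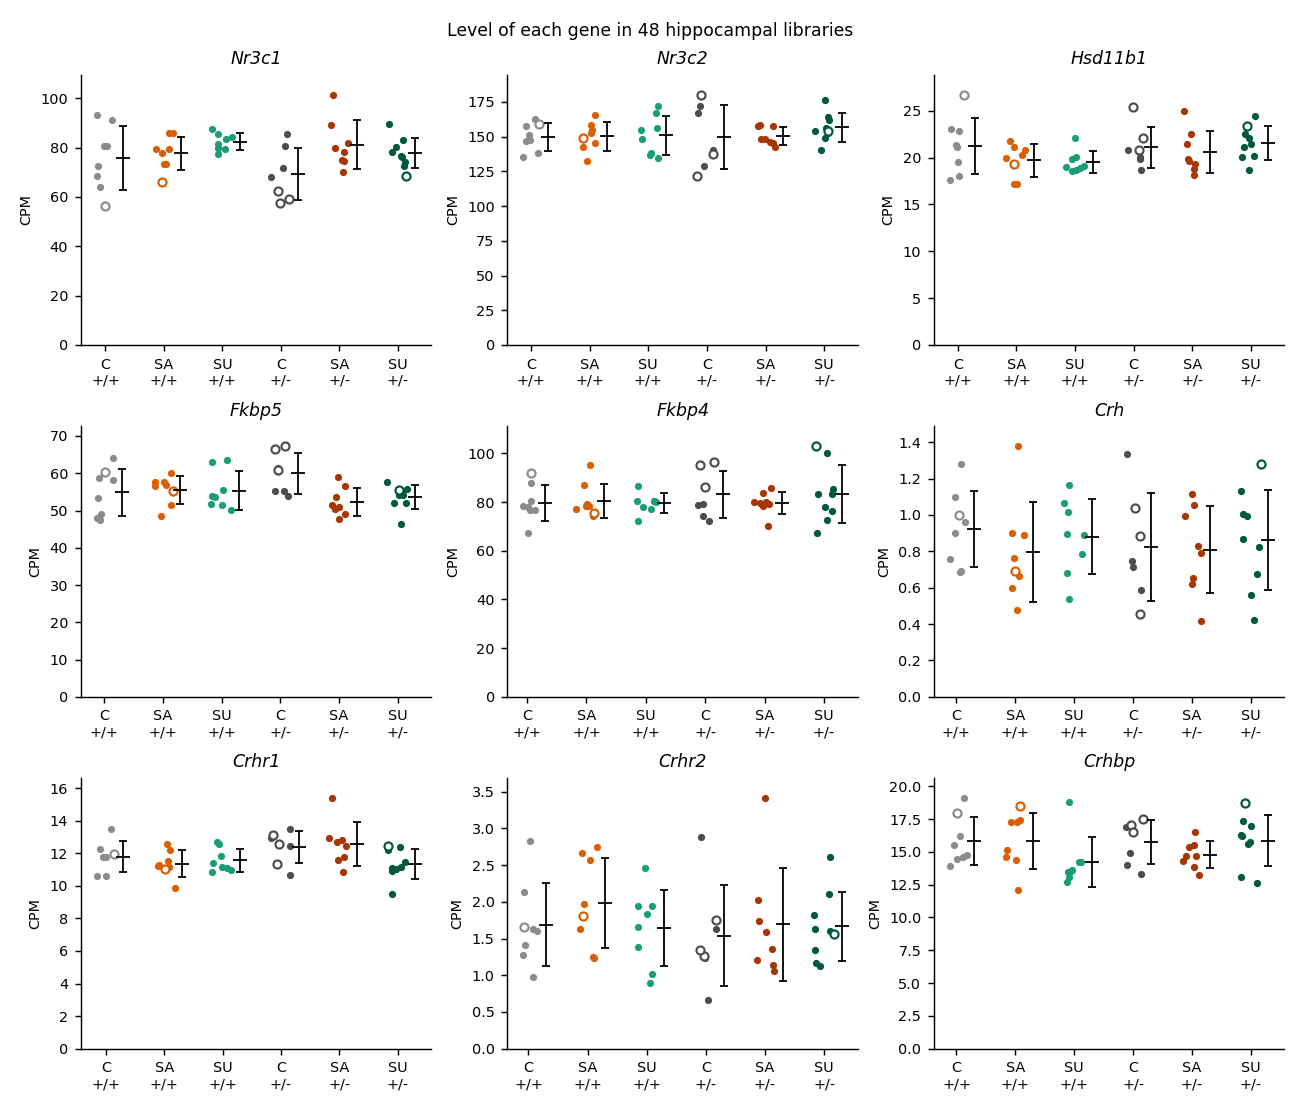
Level of each of the 9 genes in CPM (vertical axis, from 0) in the 48 libraries by group (+/+ and +/- are the 5-Htt labels). Points are libraries, open circles are the 6 libraries lowest on the first principal component, and black bars give the group mean ± SD; the groups overlap in every panel, and Nr3c1 in control 5-Htt+/- libraries reaches from 57.7 to 85.6 CPM.

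Prenatal stress and 5-Htt genotype were first compared over all 9 genes. By edgeR's quasi-likelihood test with Benjamini-Hochberg adjustment over 31208 genes, 0 of the 9 genes differed between SA and control 5-Htt+/+ libraries, where 0.0128% of all genes did, and 0 of 9 between SU and control 5-Htt+/+ libraries (0.0192% of all genes). In libraries labelled 5-Htt+/-, 0 of 9 genes differed between SA and control (0.0288% of all genes) and 0 of 9 between SU and control (0.016%). SA and SU libraries differed in 0 of 9 genes under either genotype label (0% of all genes in both). The genotype labels differed in 0 of 9 genes over all groups (0.0224% of all genes) and among controls (0.016%), and none of the 9 had an effect of SA, of SU or of SA against SU that differed between the labels (0% of all genes in each). The fold changes behind these counts are small, and their confidence intervals are narrow for the abundant genes.

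Unadjusted p under 0.05 occurred in none of the 9 genes in 5-Htt+/+ libraries, by the quasi-likelihood test, by edgeR's likelihood ratio test or by DESeq2, against a background of 3.07% of all genes in SA and 3.37% in SU. In SA 5-Htt+/- libraries 2 of 9 genes had one against controls by all 3 tests, against 12.1% of all genes: Nr3c1 was higher and Fkbp5 lower. In SU 5-Htt+/- libraries the same 2 genes had one (15.5% of all genes), of which DESeq2 kept 1. Crhr1 alone had one between SA and SU 5-Htt+/- libraries (3.79% of all genes), and none did in 5-Htt+/+ libraries (3.9%). Between the labels it was Fkbp5 among controls (8.51% of all genes) and none over all groups (5.01%). For an effect that differed between the labels, it was Fkbp5 for SA (5.21%) and for SU (5.65%), and Crhbp for SA against SU (3.7%), where DESeq2 had 2 genes.

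**Figure D2:**
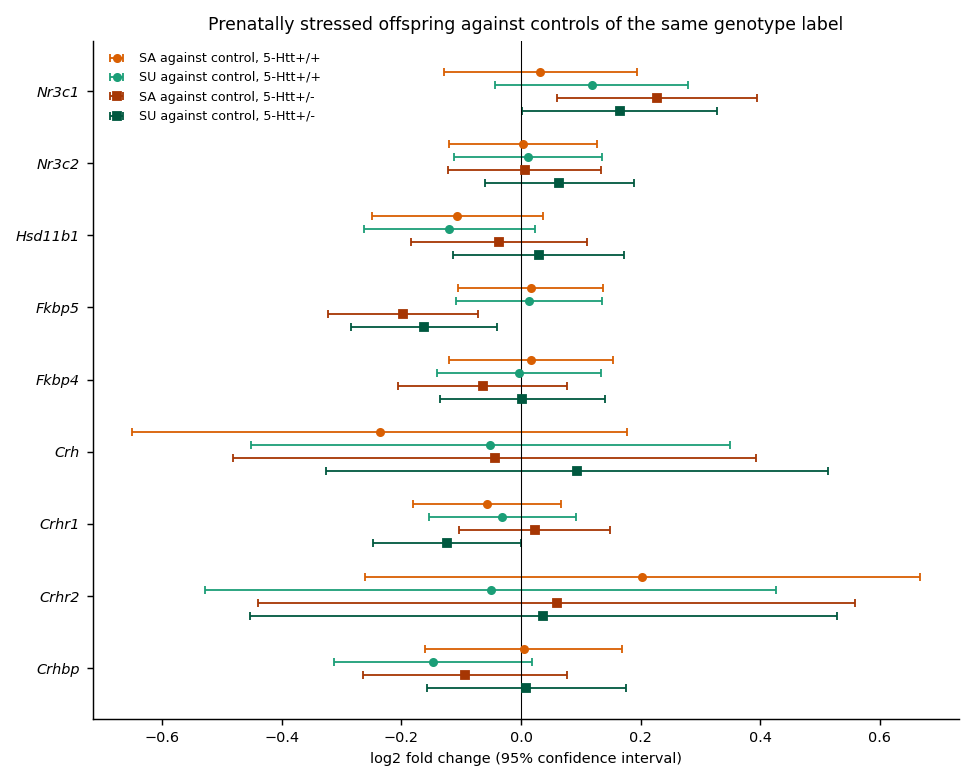
log2 fold change (horizontal axis) of each gene in SA or SU libraries against controls of the same genotype label, with 95% confidence intervals; circles are 5-Htt+/+ and squares 5-Htt+/- libraries. Intervals of Nr3c2 lie between −0.12 and 0.19 and those of the scarce Crh between −0.65 and 0.51; for Fkbp5 only both 5-Htt+/- comparisons lie wholly below 0.

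The glucocorticoid receptor gene Nr3c1 (chromosome 18, minus strand) had its lowest mean in control 5-Htt+/- libraries and its highest in SU 5-Htt+/+ libraries. Control 5-Htt+/+ libraries had 56.5, 76.6 and 93.0 CPM as lowest, median and highest value, SA 5-Htt+/+ libraries 66.2, 78.6 and 85.9, and SU 5-Htt+/+ libraries 77.3, 82.6 and 87.7. Control 5-Htt+/- libraries had 57.7, 68.2 and 85.6 CPM, SA 5-Htt+/- libraries 69.9, 79.2 and 101.5, and SU 5-Htt+/- libraries 68.5, 76.6 and 89.4. SA 5-Htt+/- libraries thus began above the median of their controls, while the upper values of both groups overlapped.

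The Nr3c1 mean was 81.2 ± 9.99 CPM (SD, n = 8) in SA 5-Htt+/- libraries and 69.3 ± 10.7 CPM (n = 7) in their controls, a log2 fold change of 0.23 ± 0.08 (SE) with an unadjusted p of 0.00866 and an adjusted p of 0.332 by edgeR's quasi-likelihood test. SU 5-Htt+/- libraries had 77.7 ± 6.13 CPM (n = 9), a log2 fold change of 0.17 ± 0.08 (adjusted p = 0.318, edgeR). Leaving out the 6 libraries lowest on the first component, the log2 fold changes were 0.09 and 0.04 (edgeR's quasi-likelihood test, unadjusted p of 0.282 and 0.580). A fit that included the component score gave 0.10 for SA and 0.05 for SU, with unadjusted p of 0.0638 and 0.369 by edgeR's quasi-likelihood test. The 3 control 5-Htt+/- libraries among those 6 had 59.8 ± 2.49 CPM of Nr3c1 and the other 4 had 76.5 ± 7.91 CPM. In a bulk sample, fewer cells of a type and less RNA per cell cannot be told apart.

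The mineralocorticoid receptor gene Nr3c2 (chr8:76899442-77245012, GRCm38, plus strand) was the steadiest member across groups, with group means of 149.8 to 156.7 CPM. Its libraries ranged from 122 CPM, in a control 5-Htt+/- library, to 180.3 CPM in another library of the same group. Over the 4 comparisons of stressed with control libraries its 95% intervals ran from a fold of 0.919 to one of 1.14.

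The balance of both receptors was taken as the log2 ratio of Nr3c2 to Nr3c1 counts within a library, which does not depend on scaling. It averaged 0.998 ± 0.275 in control, 0.95 ± 0.12 for SA and 0.87 ± 0.15 for SU among the 5-Htt+/+ libraries (SD, n = 8 each). In 5-Htt+/- libraries it averaged 1.11 ± 0.29 in controls (n = 7), 0.90 ± 0.19 in SA (n = 8) and 1.01 ± 0.08 in SU libraries (n = 9). Nr3c2 counts exceeded Nr3c1 counts in every library. The ratio was 0.21 lower in SA than in control 5-Htt+/- libraries (exact two-sided permutation test, p = 0.115) and 0.12 lower in SA than in SU 5-Htt+/- libraries (exact permutation p = 0.113). Without the 6 libraries lowest on the first component, an alternative chosen after the values were seen, the ratio was 0.09 lower in SA than in control 5-Htt+/- libraries (exact permutation p = 0.529). Of 21 such tests on 3 ratios of members, the smallest adjusted p was 0.591.

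**Figure D3:**
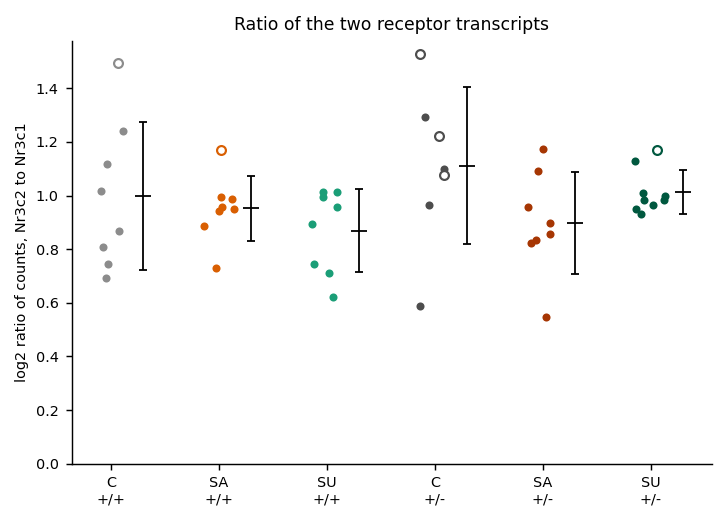
log2 ratio of Nr3c2 to Nr3c1 counts (vertical axis, from 0) in each library by group, with group mean ± SD as black bars and open circles for the 6 libraries lowest on the first principal component. All 48 values lie above 0, from 0.547 to 1.53, and both extremes are found in 5-Htt+/- libraries.

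Hsd11b1 (chr1:193221634-193264075, GRCm38, minus strand), the enzyme that regenerates corticosterone, had group means of 19.5 to 21.5 CPM. Its log2 fold changes against controls were between −0.12 and 0.03, with 95% intervals from −0.26 to 0.17. The highest library, at 26.7 CPM, was a control 5-Htt+/+ library and was among the 6 lowest on the first component. Antisense genes overlap Hsd11b1, Nr3c2 and Fkbp5, and the strand setting of the counting is not given, so reads of the partners may be included.

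Fkbp5 (chr17:28399095-28517524, GRCm38, minus strand), the co-chaperone that lowers hormone binding, was the gene with the smallest p among the 9. Control 5-Htt+/+ libraries had 47.6, 55.8 and 64.1 CPM as lowest, median and highest value, SA 5-Htt+/+ libraries 48.6, 56.6 and 60.1, and SU 5-Htt+/+ libraries 50.1, 53.7 and 63.5. Control 5-Htt+/- libraries had 53.9, 60.8 and 67.2 CPM, SA 5-Htt+/- libraries 47.7, 51.2 and 58.9, and SU 5-Htt+/- libraries 46.3, 54.3 and 57.7. The control 5-Htt+/- group was thus the high one, and the stressed 5-Htt+/- groups reached into the lower part of its range.

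Fkbp5 averaged 60.0 ± 5.47 CPM in control 5-Htt+/- libraries (SD, n = 7) and 52.3 ± 3.77 CPM in SA 5-Htt+/- libraries (n = 8), a log2 fold change of −0.20 ± 0.06 (SE) with an unadjusted p of 0.00283 and an adjusted p of 0.276 by edgeR's quasi-likelihood test. In SU 5-Htt+/- libraries it averaged 53.6 ± 3.25 CPM (n = 9), with a log2 fold change of −0.16 ± 0.06 (adjusted p = 0.216, edgeR). In 5-Htt+/+ libraries the log2 fold changes were 0.02 in SA and 0.01 in SU. The difference between the labels in the effect of SA was −0.21 ± 0.09 (adjusted p = 0.846, edgeR) and in that of SU −0.18 ± 0.09 (adjusted p = 0.884, edgeR). Among controls Fkbp5 was higher in libraries labelled 5-Htt+/- by 0.13 ± 0.06 (adjusted p = 0.584, edgeR), and by 0.07 without the 6 libraries lowest on the first component.

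When the 6 libraries lowest on the first component were left out, the log2 fold change of Fkbp5 was −0.11 in SA (unadjusted p = 0.139, edgeR) and −0.08 in SU 5-Htt+/- libraries (0.264). With the score of the component in the fit it was −0.12 in SA and −0.09 in SU, with unadjusted p of 0.0249 and 0.0864 by edgeR's quasi-likelihood test. The difference between the labels was −0.15 for SA and −0.12 for SU without the 6 libraries (unadjusted p = 0.124 and 0.222, edgeR). The 3 control 5-Htt+/- libraries among those 6 had 64.9 ± 3.54 CPM of Fkbp5 and the other 4 had 56.4 ± 3.31 CPM.

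Fkbp4 (chr6:128429735-128438677, GRCm38, minus strand), the co-chaperone with the opposite role, had group means of 79.5 to 83.4 CPM and log2 fold changes against controls of −0.06 to 0.02 (95% intervals from −0.21 to 0.15). The log2 ratio of Fkbp5 to Fkbp4 counts averaged −0.47 ± 0.14 in control (n = 7), −0.61 ± 0.15 among SA (n = 8) and −0.63 ± 0.21 among SU 5-Htt+/- libraries (n = 9), against −0.53 to −0.54 in the 5-Htt+/+ groups. The difference of SA from control 5-Htt+/- libraries was −0.14 (exact two-sided permutation test, p = 0.0821), which did not pass the adjustment over the 21 tests.

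Between animals, levels of Nr3c1 and Fkbp5 moved in opposite directions. With group means taken out, log2 CPM of both genes over the 48 libraries had a Pearson r of −0.579 and a Spearman rho of −0.561 (permutation test, adjusted p = 0.00108 and 0.00216 over 36 pairs of members, 100000 resamples). Pearson's r was −0.543 without the 2 libraries farthest from the median of Nr3c1, −0.683 in the 28 libraries without choroid plexus, −0.5 in the 20 with it, and −0.514 without the 6 libraries lowest on the first component. Nr3c1 and Fkbp5 were also related to the first component (r = 0.826 and −0.585), whose part in their relation was not tested. How many of all pairs of genes correlate this strongly was not counted. By Pearson's r, 6 of the 36 pairs of members passed the adjustment. The others were Hsd11b1 with Fkbp5 (r = 0.412), Nr3c2 with Crhr1 (−0.41), Nr3c1 with Hsd11b1 (−0.404), Nr3c1 with Fkbp4 (−0.397) and Nr3c2 with Hsd11b1 (0.394), each with an adjusted permutation p of 0.0339. In the 20 libraries with choroid plexus, r was −0.0218 for Nr3c1 with Hsd11b1 and 0.000528 for Nr3c1 with Fkbp4. Without the 6 libraries lowest on the first component these were −0.198 and −0.113, and Nr3c1 with Fkbp5 was the 1 pair that passed, while with TMM scaling 2 pairs did.

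**Figure D4:**
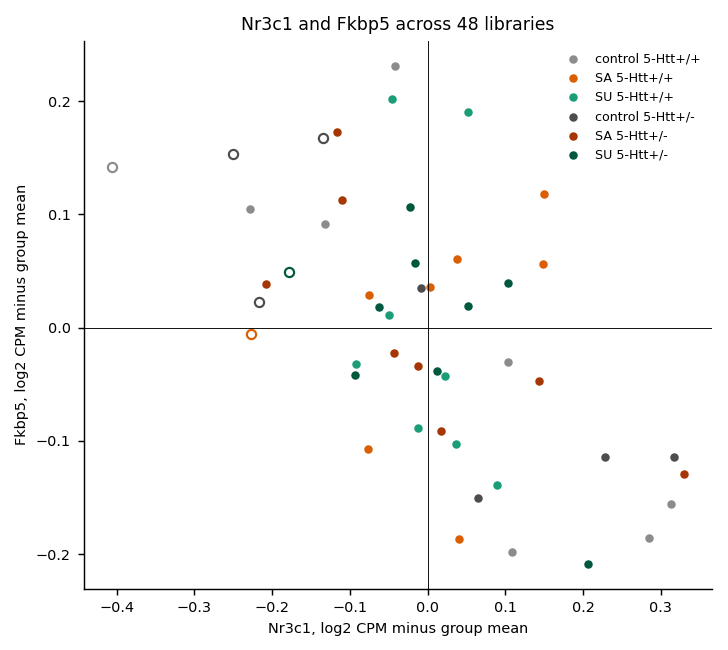
Nr3c1 (horizontal axis) against Fkbp5 (vertical axis), both as log2 CPM minus the mean of the group, in 48 libraries coloured by group. Open circles are the 6 libraries lowest on the first principal component, which all lie left of 0 on the Nr3c1 axis; over all points Pearson's r is −0.579, and −0.514 without the open circles.

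Measures of the libraries moved with the same genes, a comparison chosen after the values were seen. Of 36 relations between members and library measures with group means taken out, 5 of 9 genes passed for the first principal component: Nr3c1 (r = 0.826), Fkbp5 (−0.585), Hsd11b1 (−0.579), Fkbp4 (−0.529) and Crhbp (−0.379), with Spearman rho of 0.786, −0.638, −0.558, −0.466 and −0.354. The adjusted permutation p for r ran from 0.00018 to 0.0347, and that for rho was 0.0628 for Crhbp. How many of all genes pass in this way was not counted. The component is drawn from the same log2 CPM, so these p-values are no independent evidence. Without the 2 libraries farthest from its median, r was 0.769 for Nr3c1 and −0.568 for Fkbp5. Without the 6 lowest libraries it was 0.684 and −0.523, and for Fkbp4 and Crhbp −0.237 and −0.0836.

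The share of mitochondrial counts, 3.43% to 5.95% of a library, was related to Nr3c1 (r = 0.673, rho = 0.631, adjusted permutation p of r = 0.00018) and to Fkbp5 (r = −0.51, rho = −0.554, adjusted permutation p of r = 0.00132). Without the 2 farthest libraries r was 0.608 and −0.464. Fkbp4 passed by r alone (r = −0.441, rho = −0.355). How many of all genes relate to the mitochondrial share in this way was not counted. The oligodendrocyte marker score and the total count were related to 0 of 9 genes at an adjusted permutation p under 0.05. Control 5-Htt+/- libraries had the lowest mean mitochondrial share, 4.60 ± 0.678% (n = 7), against 5.04% to 5.32% in the other groups. The part of the mitochondrial share in the levels of Nr3c1 and Fkbp5 was not tested.

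Crh (chr3:19693401-19695396, GRCm38, minus strand), the peptide of the system, was near the lower limit of this depth. Group means were 0.796 to 0.921 CPM, and single libraries ranged from 0.418 to 1.38 CPM. SA 5-Htt+/+ libraries had the lowest mean (0.796 ± 0.274 CPM, n = 8) and control 5-Htt+/+ libraries the highest (0.921 ± 0.209 CPM, n = 8). Over the 4 comparisons with controls, the outer limits of the 95% intervals were folds of 0.637 and 1.43. Each interval included no change, and this outer range is not a limit of detection.

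Crhr1 (chr11:104132855-104175523, GRCm38, plus strand), the main CRH receptor of the hippocampus, was highest in SA 5-Htt+/- libraries and lowest in SU 5-Htt+/- libraries. SA 5-Htt+/- libraries had 10.8, 12.6 and 15.4 CPM as lowest, median and highest value, and SU 5-Htt+/- libraries 9.47, 11.2 and 12.5. All but 1 of the SA values lay within the range of their controls, which had 10.7, 12.6 and 13.5 CPM. The log2 difference of SA from SU was 0.15 ± 0.06 (SE), with an unadjusted p of 0.0172 and an adjusted p of 1.0 by edgeR's quasi-likelihood test, and 0.10 without SA 5-Htt+/- replicate 7. In 5-Htt+/+ libraries the same difference was −0.03 ± 0.06.

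Crhr2 (chr6:55090049-55133016, GRCm38, minus strand), the receptor that mainly serves the urocortins, differed most between single libraries, by 5.12 times from 0.666 to 3.41 CPM. Its group means of 1.54 to 1.98 CPM lay within the spread of any group (SD 0.470 to 0.768 CPM). Instead, it moved with choroid plexus tissue. It averaged 2.15 ± 0.605 CPM in the 20 libraries with that tissue and 1.39 ± 0.318 CPM in the 28 without it, and the mean was higher with it in 6 of 6 groups. Crhbp, Fkbp4 and Hsd11b1 were higher with it in 1 of 6 groups each, and Crhbp averaged 14.7 ± 1.37 CPM with and 15.9 ± 1.95 CPM without it. The other 5 members were higher with it in 2 to 4 groups.

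Among the 20 libraries with choroid plexus, log2 CPM of Crhr2 and of Ttr had a Pearson r of 0.824 and a Spearman rho of 0.805 (permutation test, adjusted p = 4e-05 and 0.00014 over 2 relations), and r was 0.782 without the 2 libraries farthest from the median of Ttr. Among the 28 without it, r was 0.239 and rho 0.148 (adjusted permutation p = 0.221 and 0.448). These relations were computed after the values were seen. The summed level of the 12 choroid plexus markers, none of which was at 0, ranged from 27.3 to 954.9 CPM, and the number of libraries with the tissue ran from 1 of 7 in control 5-Htt+/- to 6 of 9 in SU 5-Htt+/- libraries.

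**Figure D5:**
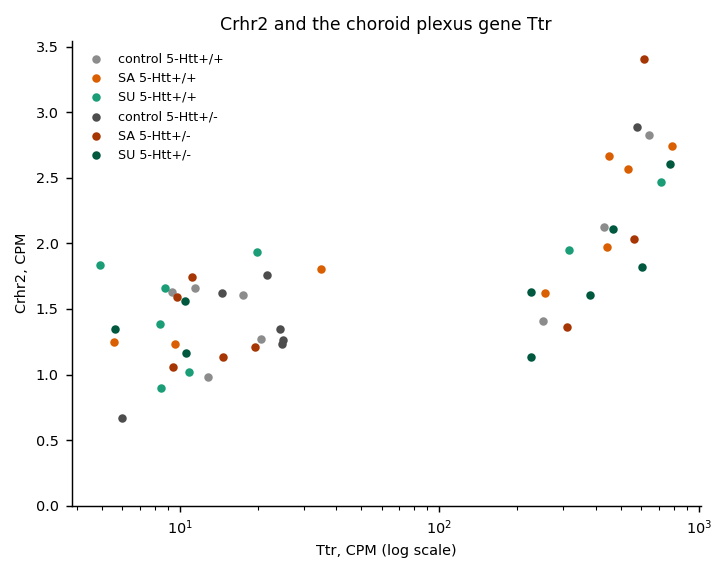
Crhr2 in CPM (vertical axis, from 0) against the choroid plexus gene Ttr in CPM (horizontal axis, log scale) in 48 libraries coloured by group. The 28 libraries with Ttr up to 34.8 CPM hold at most 1.94 CPM of Crhr2, and the 20 libraries with Ttr from 226 CPM reach 3.41 CPM.

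Crhbp (chr13:95431371-95444831, GRCm38, minus strand), which binds and buffers CRH, had group means of 14.2 to 15.8 CPM, lowest in SU 5-Htt+/+ libraries. SA 5-Htt+/+ libraries had 12.1, 16.2 and 18.5 CPM as lowest, median and highest value, SU 5-Htt+/+ libraries 12.7, 13.6 and 18.8, SA 5-Htt+/- libraries 13.3, 14.7 and 16.5, and SU 5-Htt+/- libraries 12.6, 16.2 and 18.7. The order of SA and SU was thus opposite under both labels, with a log2 difference of 0.15 ± 0.08 in 5-Htt+/+ and −0.10 ± 0.08 in 5-Htt+/- libraries. The difference between these was 0.25 ± 0.12 (unadjusted p = 0.0324, adjusted p = 1.0 by edgeR's quasi-likelihood test), 0.48 without the 20 libraries with choroid plexus and 0.18 without the 6 libraries lowest on the first component (unadjusted p = 0.116, edgeR). The log2 ratio of Crhbp to Crh counts was 4.04 to 4.37 on average in the 6 groups, and none of its 7 comparisons passed the adjusted exact permutation test.

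Genes known to be induced by corticosteroids were counted as a possible readout of this system, and their link to hormone levels was not tested. In the offspring it tested, the paper found no significant effect of stress, genotype or social behaviour on corticosterone. Of 22 such genes, all tested, 4 were called lower in SA than in control 5-Htt+/- libraries by edgeR's quasi-likelihood test with Benjamini-Hochberg adjustment, where 9 of all genes were called. In all, 19 of the 22 had a lower estimate and 15 were lower at an unadjusted p under 0.05, against 6.96% of all genes. The median log2 fold change of the list was −0.29, and that of all genes tested −0.01. In SU 5-Htt+/- libraries 2 of the 22 were called lower, 21 had a lower estimate, 12 were lower at an unadjusted p under 0.05 (8.71% of all genes), and the median was −0.26. In 5-Htt+/+ libraries none was called, 0 in SA and 1 in SU were lower at an unadjusted p under 0.05 (1.26% and 1.78% of all genes), and the medians were −0.03 in SA and −0.08 in SU. Among controls, 18 of the 22 genes had a higher estimate under the 5-Htt+/- label than under the 5-Htt+/+ label, 12 of them at an unadjusted p under 0.05 (4.82% of all genes) and with a median of 0.20, and none was called. The list was chosen with results of these data known, so its direction is no independent evidence.

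Sgk1, a kinase induced by both receptors, was the gene with the smallest p of the 22. It had 60.9, 74.0 and 88.6 CPM as lowest, median and highest value in control 5-Htt+/- libraries, 41.8, 49.7 and 55.8 in SA, and 45.9, 50.9 and 62.0 in SU 5-Htt+/- libraries. Every SA value lay below every control value, which was also so for Mt1, whereas SU values of Sgk1 reached into the range of the controls. The share of all genes that separate like this was not counted. Control 5-Htt+/+ libraries had 51.0, 54.2 and 71.1 CPM, so the control 5-Htt+/- group was the high one. The log2 fold change was −0.62 ± 0.09 in SA (adjusted p = 0.000347, edgeR's quasi-likelihood test) and −0.54 ± 0.09 in SU (adjusted p = 0.00463, edgeR).

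Mt1, which encodes a zinc-binding metallothionein, fell by 0.57 ± 0.10 on the log2 scale in SA 5-Htt+/- libraries (adjusted p = 0.00403, edgeR), from 85.1 ± 22.0 CPM in controls to 57.3 ± 3.91 CPM. Nfkbia, the inhibitor of NF-kappa-B, fell by 0.48 ± 0.10 in SA (adjusted p = 0.0378, edgeR) and by 0.53 ± 0.09 in SU 5-Htt+/- libraries (adjusted p = 0.0153, edgeR), from 12.5 ± 1.95 CPM in controls to 8.96 ± 1.44 and 8.68 ± 1.05 CPM. Mfsd2a, a lipid transporter of the blood-brain barrier, fell by 0.41 ± 0.08 in SA (adjusted p = 0.0472, edgeR), from 16.6 ± 2.23 CPM to 12.5 ± 1.06 CPM. The control 5-Htt+/- means stood above those of control 5-Htt+/+ libraries, by 0.44 ± 0.10 for Mt1 (adjusted p = 0.135, edgeR) and by 0.36 ± 0.10 for Nfkbia (adjusted p = 0.356, edgeR). None of these effects differed between the genotype labels at an adjusted p under 0.05 (Sgk1 −0.48 ± 0.13 for SA, adjusted p = 0.846, edgeR). Of all 31208 genes, 0 did. The unadjusted p by edgeR was 0.00043 for Sgk1, 0.00153 for Mt1, 0.00293 for Mfsd2a and 0.00949 for Nfkbia in SA. In SU it was 0.00514 for Sgk1 and 0.00341 for Nfkbia. These genes were named for their small p in 5-Htt+/- libraries, so these values are no independent evidence.

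The number of calls depended on the libraries used. Without the 6 libraries lowest on the first component, Sgk1 alone kept its call in SA, and the adjusted p (edgeR) was 0.0848 for Mt1, 0.856 for Nfkbia and 0.588 for Mfsd2a in SA, and 0.134 for Sgk1 and 0.407 for Nfkbia in SU. The log2 fold changes there were −0.60 for Sgk1, −0.43 for Mt1, −0.32 for Nfkbia and −0.35 for Mfsd2a in SA, and −0.51 for Sgk1 and −0.38 for Nfkbia in SU. Without the 20 libraries with choroid plexus none was called (Sgk1 in SA, −0.65, adjusted p = 0.211, edgeR). The medians of the list there were −0.33 in SA and −0.31 in SU. At an unadjusted p under 0.05, 13 and 11 of its genes were lower. Of all 30254 genes tested in those libraries, 1382 in SA and 2121 in SU had such a p in either direction. Leaving out 1 library at a time ended the call of Mfsd2a in 35 of 48 cases and that of Nfkbia in 10 in SA and 2 in SU. With the 6 left out, 20 of 22 and 21 of 22 estimates were lower, with medians of −0.24 and −0.17. Of these, 11 and 10 genes were lower at an unadjusted p under 0.05. Of all 30995 genes tested then, 1652 in SA and 2330 in SU had such a p in either direction.

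Markers of several cell types had lower estimates in the same comparisons. Of all genes, 6.96% in SA and 8.71% in SU were lower at an unadjusted p under 0.05 (edgeR). Other lists went the other way. In both groups, 5 of 8 endothelium and mural cell markers and 12 of 12 choroid plexus markers had higher estimates. Of oligodendrocyte markers, all 10 had lower estimates in SA and in SU 5-Htt+/- libraries, 8 and 9 of them at an unadjusted p under 0.05, with 0 called. Without the 6 libraries lowest on the first component, 1 and 3 did, and their median went from −0.27 to −0.11 in SA and from −0.29 to −0.20 in SU. Their summed level, with no marker at 0, in 5-Htt+/- libraries was 2530 to 4365 CPM for controls (median 3203), 2190 to 3274 CPM for SA (median 2643) and 2238 to 2846 CPM for SU (median 2548). In SA 5-Htt+/- libraries 8 of 10 astrocyte markers had a lower estimate (4 at an unadjusted p under 0.05, median −0.13), 7 of 8 microglia markers (3, median −0.13), 5 of 6 CA2 markers (3, median −0.20) and 5 of 7 markers of hypothalamus and amygdala (3, median −0.79), again with 0 called. In SU 5-Htt+/- libraries 4, 1, 0 and 3 markers of these lists, in this order, were lower at an unadjusted p under 0.05. Without the 6 libraries lowest on the first component, the numbers in SA were 1, 0, 0 and 3. Of the 30995 genes tested there, 1652 in SA and 2330 in SU had an unadjusted p under 0.05 in either direction (edgeR). The sums of these lists overlapped between the groups, and the last was scarce (4.33 to 8.90 CPM over all libraries). The part of these cell types in the result was not tested.

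Stretches before the start sites of Fkbp5 and Sgk1, both known targets of the receptors, are shown. That of Sgk1 was picked from 6 for the matches marked in it. They are 250 bases each from RefSeq (GRCm38.p6), on the strand of the gene, chr17:28486150-28486399 (minus) and chr10:21993640-21993889 (plus). Capitals mark the hexamer TGTTCT, which the receptors bind, on either strand.
Fkbp5: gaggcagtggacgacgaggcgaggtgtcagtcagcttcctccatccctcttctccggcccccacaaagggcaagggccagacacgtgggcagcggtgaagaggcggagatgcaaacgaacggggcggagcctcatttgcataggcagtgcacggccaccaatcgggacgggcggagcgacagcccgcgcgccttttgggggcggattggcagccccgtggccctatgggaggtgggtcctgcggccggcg
Sgk1: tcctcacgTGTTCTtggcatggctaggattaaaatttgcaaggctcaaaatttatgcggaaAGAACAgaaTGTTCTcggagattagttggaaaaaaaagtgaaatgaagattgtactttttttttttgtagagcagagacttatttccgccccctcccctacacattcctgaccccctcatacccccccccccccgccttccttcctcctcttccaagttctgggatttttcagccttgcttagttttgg

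The Fkbp5 window is rich in G and C (68.0%) and holds 0 matches of the hexamer. The Sgk1 window (44.8% G and C) holds 3, at bases −242, −189 and −180 from the start, and the last pair stands in opposite orientation with 3 bases between, the complete palindromic response element (AGAACA, any 3 bases, TGTTCT). Of 32851 promoter windows of 300 bases in the table, 18.974% hold the hexamer on either strand and 3 windows (0.009%) hold the complete element, this one among them. It is 1 of 6 windows of Sgk1 and is shown because it holds this element, so its matches follow from that choice. The hexamer is in 3 of the 6 windows and the complete element in 1. Windows of Mt1, Nfkbia and Mfsd2a (1 each) hold no hexamer, and neither do those of the 7 members that have one in the table. These windows were chosen for display after the values were seen, and a match is a description of letters only.

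Other parts of the pathway were counted the same way in 5-Htt+/- libraries, and none of their genes was called. Of 15 genes of the receptor chaperone complex, 9 had a higher estimate in SA and 11 in SU than in controls, with 2 and 5 higher at an unadjusted p under 0.05 (5.17% and 6.74% of all genes). Hsp90aa1, the inducible HSP90 that holds the receptor, had a log2 fold change of 0.27 ± 0.10 in SA (adjusted p = 0.331, edgeR), and Dnaja1, an HSP40 partner, had 0.21 ± 0.05 in SU (adjusted p = 0.0664, edgeR). Of 14 receptor coregulators, 6 and 8 had a higher estimate, with 2 and 1 higher and 0 and 2 lower at an unadjusted p under 0.05. Of 10 genes of steroid metabolism and export, 6 had a higher estimate in either group, and 0 and 2 were lower at an unadjusted p under 0.05.

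Of 18 genes of CRH receptor signalling, 6 had a higher estimate in SA and 9 in SU. At an unadjusted p under 0.05, 1 was higher and 3 were lower in SA and 3 were higher and 3 lower in SU, where 6.96% of all genes were lower in SA and 8.71% in SU. Those lower in SA included the adenylyl cyclase Adcy3 (−0.15 ± 0.06, adjusted p = 0.364, edgeR). Of 5 measured CRH family, pituitary and stress peptide genes, 1 had an unadjusted p under 0.05 in either group. This was Avp, the vasopressin gene, with a log2 fold change of −1.88 ± 0.57 in SA (adjusted p = 0.262, edgeR) at means of 0.127 and 0.538 CPM. The urocortin genes Ucn, Ucn2 and Ucn3 and the carrier gene Serpina6 had too few reads to be tested.

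Finally, the genes whose log2 CPM varied most like each member over the 48 libraries, with group means taken out, were found among 17470 genes with a median of at least 50 reads. The highest Spearman rho was that of B3galt1 (0.918) and Crebrf (0.915) with Nr3c1. For Nr3c2 they were Prickle2 (0.808) and Arpc2 (0.794), for Hsd11b1 Psmb4 and Ptpn11 (both 0.693), and for Fkbp5 Dgat2 (0.785) and Ip6k2 (0.780). Fkbp4 varied most like Ahsa1 (0.826) and Stip1 (0.811). In the CRH system, the values were lower for the scarce peptide than for the receptors, with Tusc3 (0.549) and Ctxn2 (0.545) for Crh. Crhr1 had Fbxo18 (0.694) and Pfkp (0.675), Crhr2 had Mfrp (0.763) and C1qtnf5 (0.759), and Crhbp had Rab31 (0.684) and Slc25a5 (0.675). All are the highest values picked from many genes. Nr3c1 was also related to the first component (rho = 0.786) and to the mitochondrial share (rho = 0.631). The part of these measures in the likeness of the genes was not tested.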

How the data were processed

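What the authors deposited are raw counts of reads for each gene in 48 hippocampal libraries, with no scaling and no filter. According to the paper, reads went through STAR, Salmon and tximport. HTSeq and DESeq2, beside STAR and the build GRCm38.p5, appear in the processing notes of the submitters. The versions of the tools that aligned and counted these reads, and the strand setting, were not given in the sources used here.

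Analyses used R 4.3.3 with edgeR 4.0.16 and DESeq2 1.42.0 together with Python 3.11.15, numpy 2.4.6, pandas 2.3.3 and scipy 1.17.1. A gene was tested if 3 or more libraries held 5 or more of its reads (31208 genes). Upper quartile factors and 1 mean per group were fitted over all 48 libraries, and contrasts were tested with edgeR's quasi-likelihood F test, adjusting p-values over the tested genes after Benjamini and Hochberg. The pipeline was tested on simulated data. Levels are CPM of the scaled library size, and log2 CPM use a prior count of 2. Ratios of members were compared with exact permutation tests. Libraries within a group all differed beyond sampling noise (chi-square per gene of 2.69 or more over 17555 genes in 169 pairs).

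The 9 members, the gene lists and the alternatives were chosen with earlier results of these data known. Named beside the members are Slc6a4, markers of choroid plexus, up to 4 genes of each list with the smallest unadjusted p under 0.05 in a contrast, and the 2 genes most like each member. Replicate numbers in the labels are shared by groups, but they name no litter, batch or day. The alternatives were other tests, scalings, filters, sample sets, a replicate block, covariates and leaving out libraries. The precision of scarce genes is limited by their read counts.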

Additional observations from a re-analysis of the deposited data

Results flagged for a closer look

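In 7 of the 72 groups of values, counting the levels and the ratios of the members, the highest or lowest library stood apart from the others of its group by Dixon's criterion at 95%, a criterion that chance alone meets in about 5% of groups. Fkbp4 was 70.3 CPM in SA 5-Htt+/- replicate 1 against 78.6 to 85.9 in the others, and Fkbp5 was 46.3 CPM in SU 5-Htt+/- replicate 9 against 52.0 to 57.7. Crhr1 was 15.4 CPM in SA 5-Htt+/- replicate 7 against 10.8 to 12.9, and the difference of SA from SU 5-Htt+/- libraries rests partly on it. Crhr2 was 3.41 CPM (77 reads) in SA 5-Htt+/- replicate 3 against 1.06 to 2.03. Hsd11b1 was 22.1 CPM in SU 5-Htt+/+ replicate 3 against 18.6 to 20.01, Crhbp was 18.8 CPM in SU 5-Htt+/+ replicate 2 against 12.7 to 14.2, and Crh was 1.38 CPM (31 reads) in SA 5-Htt+/+ replicate 2 against 0.479 to 0.902.

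The effect of prenatal stress on Fkbp5 differed between the genotype labels at an unadjusted p under 0.05, by −0.21 on the log2 scale for SA and by −0.18 for SU, and the difference of SA from SU in Crhbp differed between them by 0.25. None of these differences passed the adjustment over all genes by edgeR's quasi-likelihood test (adjusted p = 0.846, 0.884 and 1.0), and without the 6 libraries lowest on the first component they were −0.15, −0.12 and 0.18.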

How the results depend on the processing

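None of the 9 genes passed the adjusted test of edgeR in any of the 11 contrasts under any of the 63 alternatives, and the fold changes of members with an unadjusted p under 0.05 kept their direction in all of them. Of 36 pairs of members, 2 passed with TMM scaling and 1 without the 6 libraries lowest on the first component. Differences of ratios near 0 changed sign: Nr3c2 to Nr3c1, SA against control 5-Htt+/+ (−0.05), was 0.0111 with group medians and 0.0062 without the libraries with choroid plexus (−0.0893 to 0.0252 with 1 library left out). Fkbp5 to Fkbp4 was 0.0559 for SA against SU 5-Htt+/+ with medians and −0.0123 for SA against control 5-Htt+/+ without choroid plexus. Leaving out 1 library gave −0.0222 to 0.043 for SA and −0.0316 to 0.055 for SU against control 5-Htt+/+, −0.043 to 0.0345 for SA against SU 5-Htt+/+ and −0.0216 to 0.0686 for SA against SU 5-Htt+/-. Crhbp to Crh, SU against control 5-Htt+/-, was 0.30 without choroid plexus (−0.233 to 0.0925 with 1 library left out), and the same ratio gave −0.246 to 0.0795 for SA against control and −0.134 to 0.124 for SA against SU 5-Htt+/-. Without the 6 libraries lowest on the first component, an alternative chosen after the values were seen, Nr3c2 to Nr3c1 was 0.0064 for SU against control 5-Htt+/-, Fkbp5 to Fkbp4 was −0.0186 for SA against control 5-Htt+/+ and −0.0147 for SA against SU 5-Htt+/-, and Crhbp to Crh was 0.0586 for SA and 0.121 for SU against control 5-Htt+/-. The cause was not tested.

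Same-numbered libraries of different groups did not deviate together (median r −0.001 over 115 pairs), so the replicate numbers do not pair them. With a replicate block 0 members were called, Crhbp to Crh was 0.0217 for SA against SU 5-Htt+/-, and the adjusted p (edgeR) was 0.0633 for Mfsd2a and Nfkbia in SA and 0.0864 for Nfkbia in SU. Nfkbia lost its call in SU without control 5-Htt+/- replicate 1 (0.0571) or 3 (0.0731), and in SA without control replicate 1, 3, 5 or 7 or SA replicate 2, 3, 4, 5, 6 or 8 of the same label (up to 0.183). Mfsd2a lost it without most single libraries (up to 0.194). Fitting only the groups compared left Sgk1 in SA as the one call among these. Depth limits Crh and Crhr2 most.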
